A study of Mus musculus with 18 samples.

Results

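Active histone marks were examined in mouse blood cells at 8 genes that recycle cell components or remove mitochondria: Bnip3l, Fundc1, Optn, Ulk1, Atg7, Map1lc3b, Gabarapl2 and Foxo3. The 8 genes were chosen by name, with earlier results of these data known. All 8 were found among 21938 protein-coding genes of GENCODE vM21 (mm10). At each gene, peaks of both marks were read from 8 peak lists over its body plus 10 kb up- and downstream, here called the locus.

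In autophagy, a membrane grows around cell material and delivers it to the lysosome. The ULK1 kinase starts the process. The ATG7 enzyme activates ubiquitin-like proteins of the ATG8 family (LC3B and GABARAPL2 among them) before they are attached to the membrane. Receptors tether the cargo. In mitophagy the cargo is a mitochondrion, tethered by receptors in its outer membrane (NIX, the product of Bnip3l, and FUNDC1) or by soluble receptors such as optineurin that bind ubiquitin. Maturing red cells lose all of their mitochondria, and in mice this clearance is impaired without Bnip3l, Ulk1 or Atg7. FOXO3 is a transcription factor that activates autophagy genes.

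The libraries came from bone marrow of adult C57BL6 mice without a genetic change or a treatment, and the study's methods give males of 5 to 8 weeks. ERY cells, labelled erythroblasts, were sorted as Ter119+ CD44+ cells of low forward scatter. Cells labelled iMK, a megakaryocyte population, were sorted as Ter119- Sca1- cKit- cells with CD41 and CD61. Both sorts excluded CD4, CD8, IL7Ra, CD11b, Ly6g and CD45R. H3K27ac, a mark of active promoters and enhancers, and H3K4me3, a mark of active promoters, were each mapped by ChIP-seq in 2 replicates per cell type. The methods state that replicates may come from separate groups of mice or from separate aliquots of the same group, so p-values measure the spread between these libraries.

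The lists held 21768 to 25750 H3K27ac peaks and 6275 to 13222 H3K4me3 peaks. The lists hold no read counts, and the read depths that the study tabulates were not used here. H3K27ac peaks covered 77.0 and 64.9 Mb in ERY replicates 1 and 2 against 42.9 and 53.2 Mb in iMK, with median folds over control of 3.06 and 2.77 against 5.79 and 5.65. For H3K4me3, iMK replicate 2 stood apart with 33.8 Mb, against 9.02 to 16.0 Mb in the other 3 lists. H3K27ac peaks lay on the promoters of 8 of 8 erythroid marker genes in both ERY lists and of 1 of 8 in each iMK list. Of 9 megakaryocyte markers, 4 were called in each ERY list and 2 and 3 in the iMK lists. By H3K4me3 the order was the opposite, with 0 called in each ERY list and 2 and 4 in the iMK lists. Itga2b, which encodes the CD41 used in the sort, had no H3K27ac promoter peak in iMK, nor had Pf4, Gp9, Gp1ba or Ppbp. Of 10 myeloid markers, 8 and 9 were called by H3K27ac in the iMK lists and 1 and 0 in ERY, although the sort excluded CD11b and Ly6g. Of 5 lymphoid markers, 2 were called by H3K27ac in each iMK list and 0 in each ERY list. Of 4 stem markers, 2 and 3 were called in the iMK lists and 0 in each ERY list. iMK is therefore used below as the name on the label, and the part of other cells in any difference was not tested.

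The sequences shown first are pieces of the regions on which the results turn. A stretch is called ERY-only where H3K27ac was called in both ERY libraries and neither iMK library, and iMK-only in the opposite case. From the widest such stretch, for a choice of genes, 41 bases round the GATA match nearest its middle are printed, on the strand that reads the match, with the match in capitals. GATA words (AGATAA and AGATAG, or TGATAA and TGATAG) were searched on both strands, counting overlapping matches separately, because GATA1 is a main regulator of red cell genes. The genes shown were picked after their values were seen, since none passed the test of coverage away from promoters.

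Bnip3l, ERY-only, intron, chr14:66998150-66998190 (+): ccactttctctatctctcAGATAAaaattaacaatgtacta
Bnip3l, iMK-only, intron, chr14:66990709-66990749 (-): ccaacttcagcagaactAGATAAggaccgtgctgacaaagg
Optn, ERY-only, intron, chr2:5044544-5044584 (+): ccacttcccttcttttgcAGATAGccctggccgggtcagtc
Ulk1, ERY-only, intron, chr5:110806019-110806059 (+): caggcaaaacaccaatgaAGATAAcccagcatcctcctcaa
Foxo3, ERY-only, intron, chr10:42256386-42256426 (+): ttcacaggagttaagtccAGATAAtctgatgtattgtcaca
Map1lc3b, ERY-only, upstream in an intron of Gm20388, chr8:121588132-121588172 (-): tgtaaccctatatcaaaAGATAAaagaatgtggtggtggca
Atg7, iMK-only, intron, chr6:114648230-114648270 (-): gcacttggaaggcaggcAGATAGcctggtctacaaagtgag

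The bases at Atg7 are all masked as repeat in the RefSeq genome (GRCm38, the build called mm10), and those at both Bnip3l sites and at Foxo3 are not masked at all. Such words are common. The ERY-only stretches of the 8 genes held 172 matches in 90.6 kb, or 1.90 per kb, against 2.17 per kb over all 11184 ERY-only stretches of at least 1 kb in the genome. Their iMK-only stretches held 14 matches in 9.4 kb, or 1.49 per kb, against 1.64 per kb over 8194 such stretches. Summed over the 8 genes, both densities lay a little below those of the genome, with no test made. The sums of the 8 genes include stretches under 1 kb, which the genome values leave out. Map1lc3b had the highest value at 3.68 per kb (14 matches in 3.8 kb), Optn had 2.26 per kb and Bnip3l 1.30 per kb.

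Promoters are shown for Gabarapl2, marked by H3K27ac and H3K4me3 in all 4 libraries, and Optn, the gene with the largest difference in coverage. Neither window holds annotated exon. Each line gives the 200 bases before the RefSeq start site, with every CG pair in capitals.

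Gabarapl2, chr8:111940503-111940702 (+): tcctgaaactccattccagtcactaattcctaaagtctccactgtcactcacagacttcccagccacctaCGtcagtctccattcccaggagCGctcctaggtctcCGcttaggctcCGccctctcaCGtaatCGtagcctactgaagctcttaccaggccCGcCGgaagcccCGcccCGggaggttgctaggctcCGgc
Optn, chr2:5064118-5064317 (-): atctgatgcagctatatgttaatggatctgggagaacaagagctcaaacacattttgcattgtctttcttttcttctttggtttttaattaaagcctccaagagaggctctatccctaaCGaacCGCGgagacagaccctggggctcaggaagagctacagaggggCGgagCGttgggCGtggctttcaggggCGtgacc

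The Gabarapl2 window held 11 CG pairs and the Optn window 7, against 30 at Map1lc3b and 24 at Foxo3, the highest of the 7 genes with a RefSeq promoter entry (all but Bnip3l). The RefSeq entry of Atg7 begins inside the gene, 27999 bp past its GENCODE 5' end, and does not describe the promoter there. No GATA word, forkhead word (GTAAACA), CLEAR E-box (TCACGTGA, a TFEB recognition sequence) or KLF word (CCACACCC) stood in the 300-base entries of these 7 genes. Among 16522 promoters, 26.0% held a GATA word, 2.97% the forkhead word, 1.28% the E-box and 3.69% the KLF word. The ETS word CCGGAAGT stood once at Gabarapl2 and in 5.52% of all promoters.

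H3K27ac covered more of the locus in ERY than in iMK at 5 of the 8 genes (Optn, Foxo3, Bnip3l, Gabarapl2 and Map1lc3b), and none passed in the other direction (limma, adjusted p under 0.05). Over all 14467 genes tested, 22% were called higher in ERY and 17.2% higher in iMK. The median ERY minus iMK difference was 15.6 percentage points for the 8 genes and 0.60 over all genes. The 8 genes were chosen with earlier results of these data known, so their excess over all genes is not a test. At promoters, the summed width of the H3K27ac peaks within 1 kb of any annotated start was larger in ERY at 5 genes (Optn, Foxo3, Map1lc3b, Bnip3l and Ulk1), against 20.7% of 7897 genes called wider in ERY and 2.91% wider in iMK. The median difference in width was 1.17 on the log2 scale for the 8 genes and 0.42 over all genes, a ratio of 1.33. Coverage by peaks on no promoter was not called different at any of the 7 genes tested. There, 2 genes (Foxo3 and Optn) had an unadjusted p under 0.05 higher in ERY and 1 (Map1lc3b) higher in iMK, and 15.5% and 12.9% of 9791 genes were called higher in ERY and in iMK.

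These counts rest on 2 libraries a group. A fit that leaves out 1 library keeps a single library in that group, so its calls cannot show whether a result rests on the library left out. For coverage, Gabarapl2 and Map1lc3b did not pass with no flank or with no gene filter. With 25 kb on each side, Ulk1 passed (20.2 points, limma adjusted p = 0.0288) and Map1lc3b did not (limma adjusted p = 0.0546). For width, the median difference of all genes stayed at 0.35 to 0.50 on the log2 scale with any 1 library left out. For distal coverage, such calls are also not read for Bnip3l, Optn, Ulk1, Gabarapl2 and Map1lc3b. These fits assume that the single library left in a group varies like the other group. For those genes both libraries of the other group were at 0% (ERY for Map1lc3b and iMK for the rest). For coverage and width, the difference kept its sign in each of these fits for every gene called. Quantile normalization, which gives the 4 libraries the same distribution, moved the median width difference of all genes from 0.42 to -0.05 and the calls of all genes from 1637 wider in ERY and 230 in iMK to 856 and 741. On that scale Optn, Foxo3 and Map1lc3b were still wider in ERY, Bnip3l and Ulk1 did not pass, and Atg7 was wider in iMK.

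**Figure D1:**
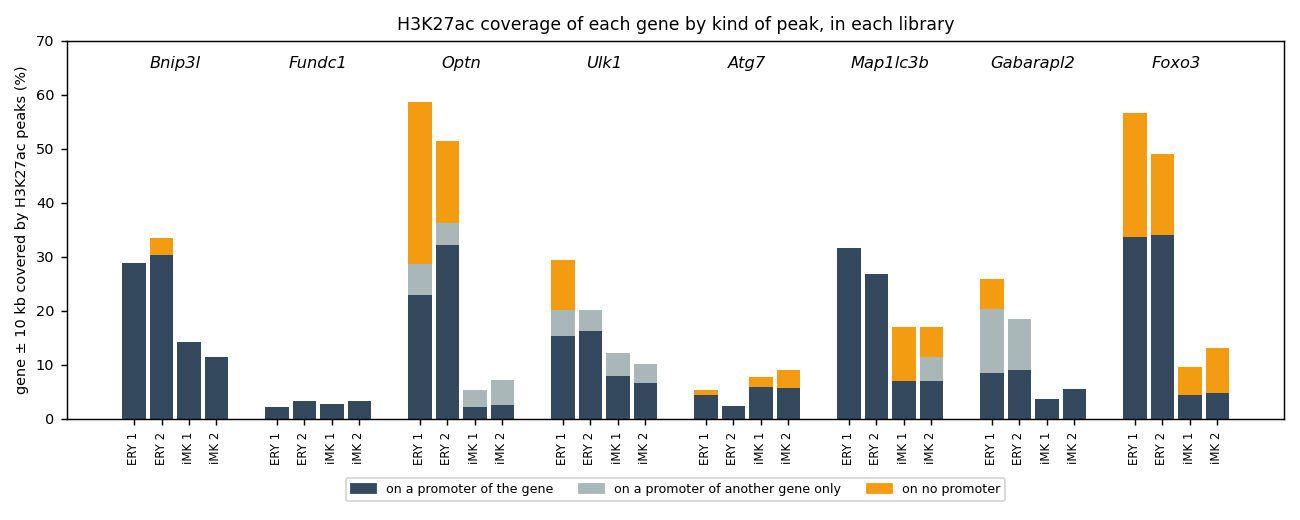
Percent of each gene with 10 kb on each side covered by H3K27ac peaks in each of the 8 genes and 4 libraries (1 bar a library), split into peaks on a promoter of the gene, on a promoter of another gene only, and on no promoter. The ERY bars stand highest at Optn (58.7% and 51.5%) and Foxo3 (56.6% and 49.1%), and at Fundc1 all 4 bars lie between 2.24% and 3.36%.

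Bnip3l encodes NIX, the outer membrane receptor that mouse reticulocytes use to discard mitochondria (chr14:66985239-67008877, minus strand). H3K27ac covered 28.9% and 33.5% of its locus in ERY replicates 1 and 2 and 14.2% and 11.5% in iMK. The groups did not overlap, and the difference was 18.3 points (SE 2.61, limma adjusted p = 0.0203). The 5' end of the gene had no part in it. The peak there was 2400 and 3000 bp wide in ERY and 2600 and 3000 bp in iMK, and coverage within 2.5 kb of the 5' end was 48.0% and 52.5% against 52.0% and 59.99% (limma adjusted p = 0.384).

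The difference at Bnip3l lay inside the gene. In each ERY library, an H3K27ac peak of 10.2 kb ran from 5.48 to 15.7 kb and from 5.28 to 15.5 kb past the 5' end, wider than 96.4% of the peaks of its list or as wide. It spanned 4 annotated transcript starts at 8.37 to 9.22 kb. H3K4me3 was called over these starts too, by a peak of 3.8 kb in ERY replicate 1 and by peaks of 0.4 and 1.2 kb in replicate 2, and in neither iMK library. The folds of these H3K4me3 peaks (3.74, 4.07 and 2.40) were above or equal to those of 18.2%, 41.7% and 3.97% of their lists. In iMK, H3K27ac was instead called farther in, from 17.5 to 21.1 kb in replicate 1 and from 16.5 to 18.5 kb in replicate 2, with folds over control (2.57 and 3.27) among the lowest 15.3% of each list.

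The internal starts decide how the gene is classed. With any annotated start as a promoter, Bnip3l had a wider promoter mark in ERY (12600 and 13200 bp against 6200 and 5000 bp, 1.21 on the log2 scale, SE 0.19, limma adjusted p = 0.0298). Within their own lists the ranks overlapped: the ERY widths exceeded 91.5% and 93.2% of called promoters, and the iMK widths 95.9% and 88.9%. With the 5' end alone, an alternative added after the data were seen, the width differed by -0.06 (SE 0.19, limma adjusted p = 0.839). The same 5'-end definition put the gain in coverage away from promoters, at 23.4% and 26.6% in ERY against 8.25% and 4.58% in iMK (limma adjusted p = 0.0268, with 17% of 10855 genes called in that direction). Beyond 2.5 kb of the 5' end, coverage was 26.4% and 31.0% against 9.32% and 5.18% (limma adjusted p = 0.02, with 23.6% of 12646 genes called in that direction).

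Fundc1, the mitochondrial receptor that acts in low oxygen, looked alike in all 4 H3K27ac lists (chrX:17556564-17572325, minus strand). Its only peak was 800 and 1200 bp wide in ERY and 1000 and 1200 bp in iMK, and the groups overlapped. The width difference was -0.16 on the log2 scale (SE 0.29, limma adjusted p = 0.705). The peak was narrow but high: its fold over control was above that of 97.9% and 87.8% of the peaks in the ERY lists or equal to it, and of 98.2% and 99.5% in the iMK lists. H3K4me3 was called at Fundc1 only in iMK replicate 2, with a peak of 1400 bp. The H3K4me3 lists held 177 and 31 peaks on chromosome X in ERY and 39 and 350 in iMK, and the part of that imbalance in the Fundc1 calls was not tested.

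**Figure D2:**
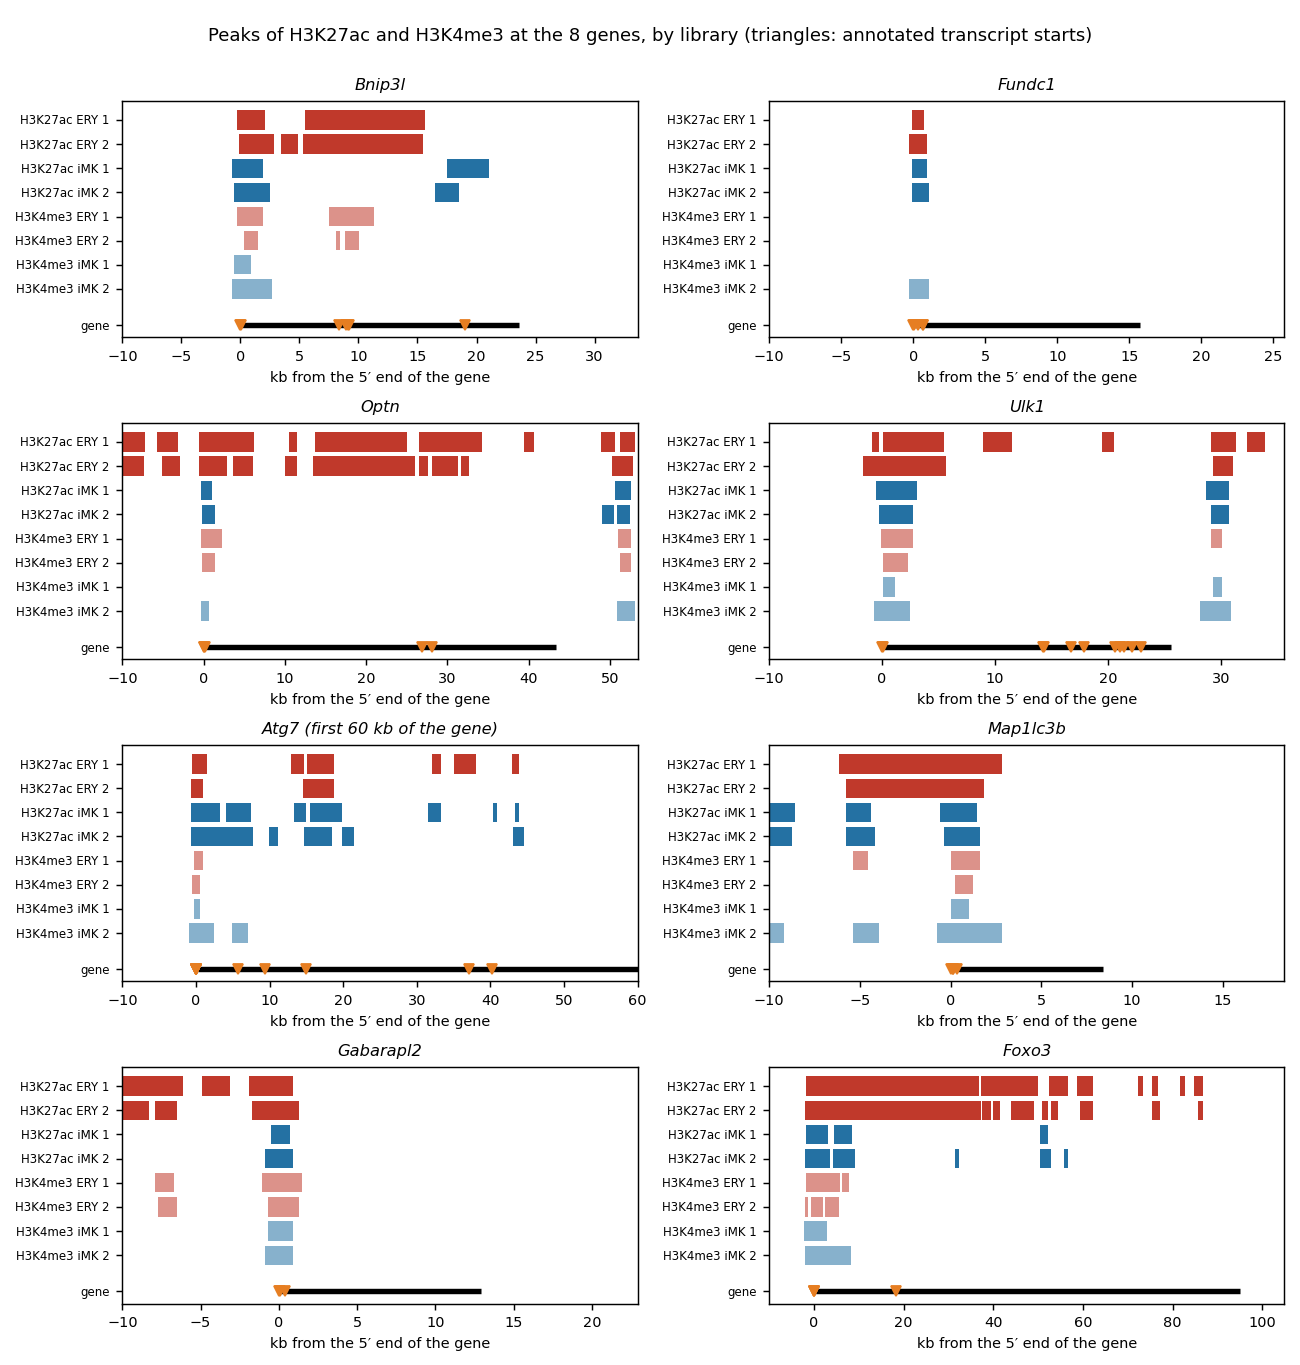
Peaks of H3K27ac (dark) and H3K4me3 (pale) in each library at the 8 genes, red for ERY and blue for iMK, by distance in kb from the 5' end of the gene (negative values are upstream). The black line is the gene and triangles are annotated transcript starts, and Atg7 is cut at 60 kb. At Foxo3 the ERY peaks of 38.6 and 39.2 kb run from the 5' end into the gene, and at Bnip3l the ERY peaks of 10.2 kb lie inside the gene.

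Optn encodes optineurin, a soluble receptor that binds ubiquitin on mitochondria and LC3 on the membrane (chr2:5020642-5064051, minus strand). It had the largest difference of the 8 genes. H3K27ac covered 58.7% and 51.5% of the locus in ERY and 5.36% and 7.25% in iMK, a difference of 48.8 points (SE 3.53, limma adjusted p = 0.00757). In iMK, the gene carried a promoter peak of 1400 and 1600 bp and nothing else until the promoter of the neighbouring gene Mcm10.

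In ERY, peaks lay upstream, at the promoter and through the gene. The widest inside the gene were 11.4 kb in replicate 1, from 13.7 to 25.1 kb past the 5' end, and 12.6 kb in replicate 2, from 13.5 to 26.1 kb. ERY-only bases came to 27 kb in 12 stretches, and iMK-only bases to 0 kb. The gain was present both within 2.5 kb of the 5' end (61.0% and 61.0% against 28.0% and 32.0%, limma adjusted p = 0.0104, with 17.1% of 11206 genes called in that direction) and beyond it (58.55% and 50.7% against 3.42% and 5.14%, limma adjusted p = 0.00932).

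The Optn promoter width was 14600 and 20400 bp in ERY and 1400 and 1600 bp in iMK, 3.53 on the log2 scale (SE 0.24, limma adjusted p = 0.0122). Much of it again belonged to peaks on internal starts, at 26.9 and 28.1 kb. The peak of 12.6 kb in ERY replicate 2 reached within 1 kb of the start at 26.9 kb and counted as promoter. The peak of 11.4 kb in replicate 1 stopped short of that window and counted as distal. Coverage by peaks on no promoter was 30.0% and 15.2% in ERY against 0% and 0% in iMK (limma adjusted p = 0.0932). At the 5' end alone the widths were 6800 and 3400 bp against 1400 and 1600 bp (1.68 on the log2 scale, SE 0.41, limma adjusted p = 0.0779), and coverage by peaks on no 5' end was 42.3% and 42.0% against 0% and 0% (limma adjusted p = 0.0215).

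Optn also had H3K4me3 at its promoter in both ERY libraries (2600 and 1600 bp) and in iMK replicate 2 (1000 bp), but not in iMK replicate 1.

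Ulk1, the kinase that starts autophagy, had a wider promoter mark in ERY (chr5:110784488-110810097, minus strand). H3K27ac peaks on its promoters summed to 7000 and 7400 bp in ERY and 3600 and 3000 bp in iMK (1.13 on the log2 scale, SE 0.17, limma adjusted p = 0.0294). Within their own lists the ranks overlapped: the ERY widths exceeded 81.5% and 85.3% of called promoters, and the iMK widths 83.8% and 69.9%. After quantile normalization the width did not pass. With the 5' end alone, the widths were 6000 and 7400 bp against 3600 and 3000 bp (limma adjusted p = 0.0524, with 16.1% of 7352 genes called wider in ERY). Of the ERY-only bases at the promoter, a stretch of 2.4 kb ran from 3.10 to 5.50 kb past the start and one of 0.4 kb from -0.90 to -0.50 kb.

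Ulk1 locus coverage was 29.4% and 20.2% in ERY and 12.3% and 10.1% in iMK. The groups did not overlap, but the ERY libraries differed from each other and the test was not passed (13.6 points, SE 3.98, limma adjusted p = 0.0805). Peaks on no promoter were called in ERY replicate 1 alone, over 9.21% of the locus. A peak at 28.7 to 31.3 kb, on the promoter of the neighbouring gene Pus1, was present in all 4 libraries.

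Atg7, the enzyme that activates the ATG8 proteins before they are attached to membrane, went the other way (chr6:114643097-114860614, plus strand). Within 2.5 kb of the 5' end, H3K27ac covered 39.99% and 32.0% in ERY and 63.9% in each iMK library (-27.9 points, SE 3.76, limma adjusted p = 0.0273), where 16.3% of genes were called higher in iMK. The peak on the 5' end was 2000 and 1600 bp wide in ERY and 4000 and 8400 bp in iMK (-1.70 on the log2 scale, SE 0.45, limma adjusted p = 0.0891, with 2.16% of 7352 genes called wider in iMK).

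The iMK-only bases of Atg7 came to 6.2 kb, of which a stretch of 3.4 kb began 4.10 kb past the 5' end, and ERY-only bases came to 0 kb. A region from 15.5 to 18.5 kb was called in all 4 libraries. By the main definition of a promoter, which counts 15 starts across this gene of 218 kb, the widths were 10400 and 5800 bp in ERY and 14000 and 13400 bp in iMK (limma adjusted p = 0.182). Against their own lists, the iMK widths exceeded 99.8% and 99.5% of called promoters, and the ERY widths 88.8% and 79.3%. Locus coverage was 5.30% and 2.44% in ERY and 7.83% and 9.09% in iMK (-4.59 points, SE 1.38, limma adjusted p = 0.0852), and it passed as higher in iMK after quantile normalization, at -5.61 points.

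Map1lc3b encodes LC3B, the ATG8 protein most used as a marker of autophagosomes (chr8:121590361-121598760, plus strand). H3K27ac covered 31.7% and 26.8% of its locus in ERY and 17.0% in each iMK library (12.2 points, SE 2.51, limma adjusted p = 0.0409). The difference was one of arrangement. In ERY, a peak of 9000 and 7600 bp ran from upstream across the start. In iMK, the same span held a promoter peak of 2000 bp in each library and a separate peak of 1.4 and 1.6 kb that began at -5.76 kb, and a further peak ended at -8.56 and -8.76 kb.

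The Map1lc3b promoter width differed by 2.05 on the log2 scale, a ratio of 4.14 (SE 0.16, limma adjusted p = 0.0125), and by the same amount with the 5' end alone (limma adjusted p = 0.0176). Peaks on no promoter ran in the opposite direction, at 0% and 0% in ERY and 10% and 5.63% in iMK (-7.82 points, SE 1.90, limma adjusted p = 0.076). Part of the iMK coverage lay from -5.76 to -4.36 kb, 1.4 kb called in all 4 libraries and counted as promoter in ERY and as distal in iMK. An iMK-only stretch of 1.4 kb ran from -10.2 to -8.76 kb, and it was part of the no-promoter coverage in iMK replicate 1 alone. In iMK replicate 2 the peak there touched another gene's promoter (4.37% of the locus) and was not counted as distal. Between the element called in all 4 libraries and the promoter, an ERY-only stretch of 3.6 kb from -4.16 to -0.56 kb filled the gap. Within 2.5 kb of the start, coverage was 100% and 86.8% in ERY and 39.99% in each iMK library (limma adjusted p = 0.019), and beyond it 17.1% and 13.9% against 12.1% in each (limma adjusted p = 0.22). The Map1lc3b locus overlaps Gm20388, another protein-coding model, and peaks cannot be assigned to either gene.

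Gabarapl2 encodes another ATG8 protein, of the branch that acts late in closing the autophagosome (chr8:111940703-111953612, plus strand). H3K27ac covered 25.8% and 18.5% of its locus in ERY and 3.65% and 5.47% in iMK (17.6 points, SE 3.17, limma adjusted p = 0.0315). Without the flanks the difference was 2.32 points (limma adjusted p = 0.352). Of the difference in means, 60.3% came from peaks on the promoter of the neighbouring gene Tmem231, which ended at -6.10 and -6.50 kb, where both ERY libraries carried H3K27ac and a 1.2 kb H3K4me3 peak and neither iMK library carried either mark. Its own promoter peak was 2800 and 3000 bp wide in ERY and 1200 and 1800 bp in iMK, without overlap (0.98 on the log2 scale, SE 0.26, limma adjusted p = 0.0784). With promoters at the 5' end alone, Gabarapl2 coverage by distal peaks was 5.47% and 5.16% in ERY and 0% and 0% in iMK (5.31 points, SE 0.50, limma adjusted p = 0.0215). The ERY values came from different peaks, at -4.90 to -3.10 kb in replicate 1 and, within the locus, the part of a peak ending at -8.30 kb in replicate 2. The bases from -10.1 to -8.30 kb were called in both ERY libraries. In replicate 1 they belonged to the peak ending at -6.10 kb, which counted as a promoter peak of another gene and not as distal. The ERY widths exceeded 45.5% and 52.6% of called promoters in their lists, and the iMK widths 13.7% and 33.3%.

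Foxo3 carried the widest H3K27ac promoter mark of the 8 genes in ERY (chr10:42181841-42276755, minus strand). H3K27ac peaks of 38600 and 39200 bp ran unbroken from -1.845 and -2.045 kb, past the 5' end, into the gene in ERY. In iMK, the promoter peaks were 5000 and 5600 bp, followed by a separate peak of 4.2 and 5 kb. The widths differed by 2.88 on the log2 scale, a ratio of 7.35 (SE 0.16, limma adjusted p = 0.0102). In the ERY lists 99.3% and 99.7% of called promoters were narrower, and in the iMK lists 92.8% and 91.4%.

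All of the Foxo3 difference lay downstream. Within 2.5 kb of the 5' end, coverage was 86.9% and 90.9% in ERY and 86.9% and 90.9% in iMK, and beyond it 55.2% and 47.2% against 6.05% and 9.51% (43.4 points, SE 3.93, limma adjusted p = 0.0113). ERY-only bases came to 42.6 kb in 10 stretches, the widest of 22.2 kb from 9.16 to 31.4 kb past the 5' end, and iMK-only bases to 0.6 kb. Locus coverage was 56.6% and 49.1% against 9.57% and 13.1% (41.5 points, SE 3.81, limma adjusted p = 0.00993). Of that difference, 70.4% was in the promoter peak and 29.6% in peaks on no promoter, which on their own did not pass (23.0% and 14.97% against 5.22% and 8.18%, limma adjusted p = 0.108).

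**Figure D3:**
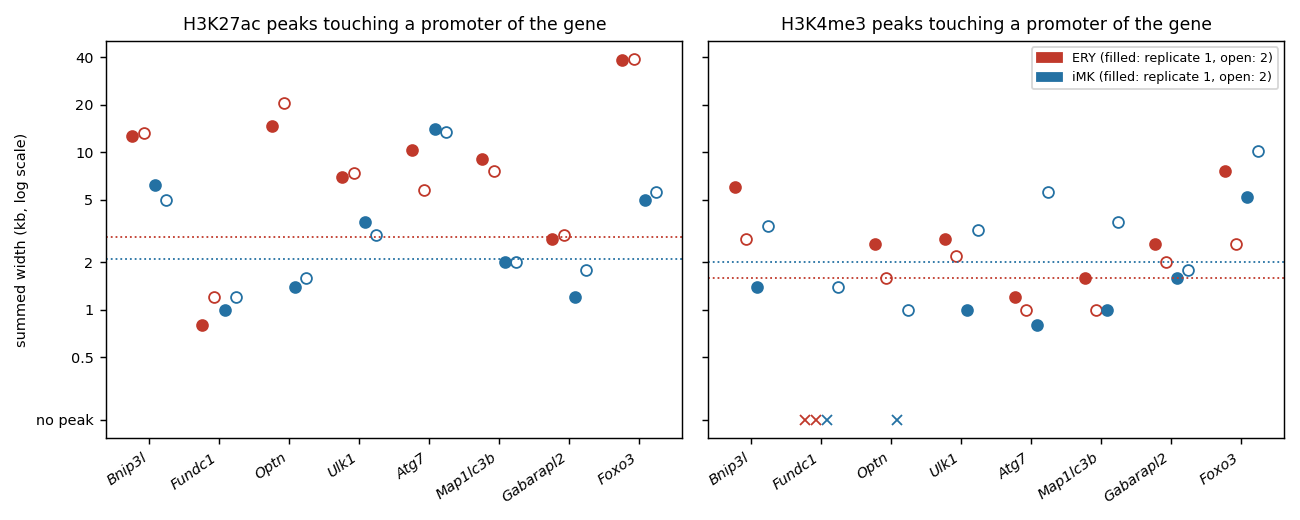
Summed width in kb, on a log scale, of the H3K27ac (left) and H3K4me3 (right) peaks on the promoters of each gene, with 1 point a library, crosses where no peak was called, and dotted lines at the mean of the 2 library medians over all called promoters. H3K27ac widths at Foxo3, Optn, Map1lc3b, Bnip3l and Ulk1 lie higher in both ERY libraries than in both iMK libraries, and H3K4me3 widths overlap at most genes.

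Split by distance, the genes fell into different arrangements. Foxo3 and Bnip3l passed only beyond 2.5 kb, Map1lc3b only within it, and Optn in both. Near the 5' end the called set was Map1lc3b and Optn higher in ERY and Atg7 higher in iMK. Of all 11206 genes tested there, 17.1% were called higher in ERY and 16.3% in iMK. Beyond 2.5 kb Foxo3, Bnip3l and Optn passed, all higher in ERY. Of all 12646 genes tested there, 23.6% were called higher in ERY and 15.5% in iMK. Whether the 2 parts of a gene differ from each other was not tested. Gabarapl2 (limma adjusted p = 0.053 near and 0.0622 beyond) and Ulk1 (0.391 and 0.159) passed in neither part.

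**Figure D4:**
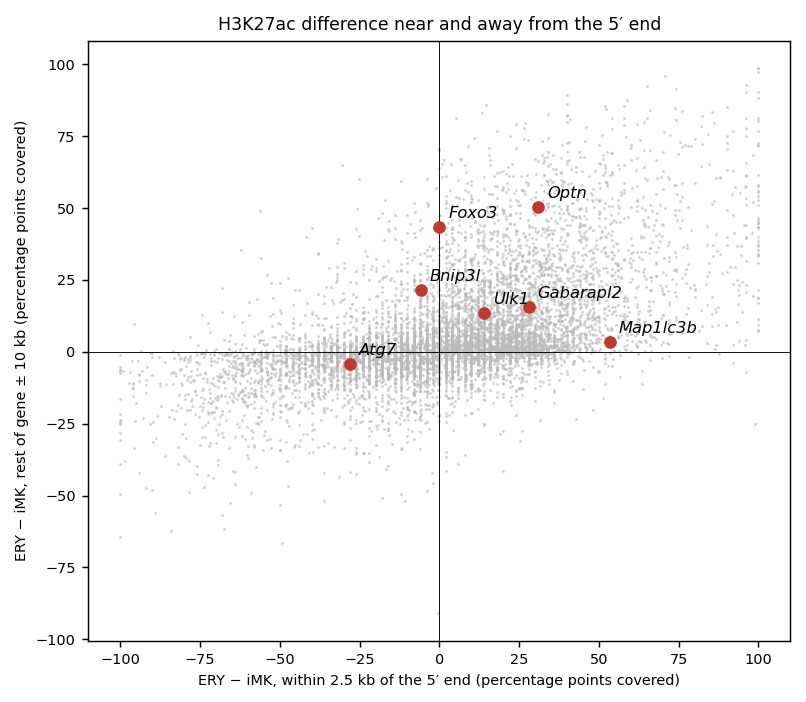
ERY minus iMK difference in H3K27ac coverage, in percentage points, within 2.5 kb of the 5' end (horizontal) and over the rest of the locus (vertical), for 9385 genes with both values (grey) and 7 of the 8 genes (red). Foxo3 lies at 0 and 43.4, Map1lc3b at 53.4 and 3.37, and Atg7 at -27.9 and -4.09.

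For H3K4me3, no gene of the 8 was called by coverage, and none of the 6 tested was called by promoter width. Fundc1 and Optn were not tested for width, because a promoter peak was missing in at least 1 library. Over all genes, 0% and 0% of 13561 by coverage and 0% and 0.0185% of 5398 by width were called higher in ERY and in iMK. At an unadjusted p under 0.05, 64 genes were higher in ERY and 418 in iMK by coverage, none of them among the 8, and limma without a trend also called 0. At Foxo3 the H3K4me3 widths were 7600 and 2600 bp in ERY and 5200 and 10200 bp in iMK, and the groups overlapped. At Atg7 they were 1200 and 1000 bp against 800 and 5600 bp, and at Map1lc3b 1600 and 1000 bp against 1000 and 3600 bp, where iMK replicate 2 was the widest each time. At Gabarapl2 the groups did not overlap, in width (2600 and 2000 bp against 1600 and 1800 bp, limma adjusted p = 1) or in coverage (11.5% and 9.72% against 4.86% and 5.47%, limma adjusted p = 0.815). Without iMK replicate 1, H3K4me3 coverage of Atg7 and Fundc1 passed as higher in iMK, as it did for 4099 of all genes, and 986 passed without iMK replicate 2.

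Bases called in both libraries of a cell type were compared. By that count H3K27ac was broader than H3K4me3 in both cell types at these genes, apart from Gabarapl2 in iMK (1.2 against 1.6 kb). In iMK replicate 2, H3K4me3 covered more of the locus than H3K27ac at Ulk1, Map1lc3b and Fundc1. The values were 13.2% against 10.1%, 20.6% against 17.0% and 3.91% against 3.36%. At Foxo3, H3K4me3 in both ERY libraries covered 6.4 kb and H3K27ac 54.2 kb, and all of the H3K4me3 lay under H3K27ac. At Optn the values were 3 and 30.4 kb, at Bnip3l 2.8 and 12.2 kb, and at Map1lc3b 1 and 7.6 kb.

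The 8 genes were set among 83 autophagy and mitophagy genes grouped by step, a list also chosen with earlier results of these data known. Of the 83, 82 had H3K27ac coverage. In coverage, 29 were called higher in ERY and 14 in iMK, with a median difference of 3.10 points. Without the 8 genes, 24 of 74 were higher in ERY and 14 in iMK, beside the 22% and 17.2% of all genes. Membrane supply had 4 of 7 genes higher in ERY and 0 in iMK. Wipi1 and Wipi2, which bind the phosphoinositide of the growing membrane, had 69.7% and 50.9% against 6.14% and 8.19%, and 57.2% and 44.8% against 2.86% and 3.498% (limma adjusted p = 0.021 and 0.0129). Among 7 mitochondrial receptors, Bcl2l13 and Phb2 were higher in ERY with Bnip3l, and Nlrx1 was higher in iMK (-16.4 points, SE 1.42, limma adjusted p = 0.00927; 0.97 with 25 kb on each side).

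Among the ubiquitin mitophagy genes, 3 of 7 were higher in ERY, including Tbk1, the kinase that phosphorylates optineurin (47.7% and 40.1% against 6.61% and 6.94%, limma adjusted p = 0.0102). Its promoter width of 22200 and 11800 bp against 2800 and 2200 bp also passed (limma adjusted p = 0.0278), but the difference with the 5' end alone was -0.311 on the log2 scale. Of the fusion genes, Vamp8, a SNARE of autophagosome and lysosome fusion, had 72.9% and 70.6% against 17.2% and 22.7% (limma adjusted p = 0.00669), and Plekhm1 was higher in iMK (-25.0 points, SE 3.78, limma adjusted p = 0.0224).

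The transcription factors split. Foxo3 and Tfe3 were higher in ERY by coverage, and Tfeb, Mitf and Foxo1 in iMK. Within 2.5 kb of the 5' end, Tfe3 was higher in iMK (-19.996 points). Tfeb, a regulator of lysosome and autophagy genes, had 0% and 0% in ERY and 32.9% and 36.9% in iMK (limma adjusted p = 0.0065). In the conjugation step that holds Atg7, 3 of 11 were higher in ERY and 3 in iMK. Atg12, a ubiquitin-like protein of that step, had 10.8% in each ERY library against 29.3% and 24.2% (limma adjusted p = 0.0229). Of 5 genes of the initiation complex, including Ulk1, 0 were called, and of 12 nutrient control genes 6 were higher in ERY and 3 in iMK.

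Promoters of 19 of 72 listed genes were wider in ERY and 2 in iMK (Uvrag and Atg12), beside the 20.7% and 2.91% of all genes. With the 5' end alone, 10 of 66 were wider in ERY and 1 in iMK, beside 16.1% and 2.16% of all genes. The largest ratios outside the 8 genes were at Tsc2, 16600 and 15400 bp against 1400 and 1600 bp (limma adjusted p = 0.0102), and Sesn2, 8600 and 8200 bp against 1200 and 800 bp (limma adjusted p = 0.0132). Both genes restrain the nutrient-sensing kinase mTORC1. Atg4b, a protease that processes ATG8 proteins, had 14400 and 11200 bp against 1800 and 2000 bp (limma adjusted p = 0.0125). With the 5' end alone, Tsc2 and Atg4b did not pass, and within 2.5 kb of it the coverage difference at Atg4b was -14.0 points. Away from promoters, 9 of 67 listed genes were higher in ERY and 6 in iMK, beside 15.5% and 12.9% of all genes. Wipi2 had 34.7% and 39.8% against 0% and 0%, Atg14 28.0% and 26.3% against 0% and 3.62%, and Ddit4 19.9% and 15.3% against 0% and 0% (limma adjusted p = 0.026, 0.026 and 0.0278). The mitochondrial receptor gene Bcl2l13 had 18.8% and 17.0% against 0% and 1.30% (limma adjusted p = 0.026). In the other direction, Plekhm1, Nlrx1, Atg4c and Atg2a passed with more coverage in iMK, by -15.9, -12.0, -8.39 and -6.64 points (ERY less iMK). The Atg2a difference turned to 0.42 points higher in ERY with 25 kb on each side.

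**Figure D5:**
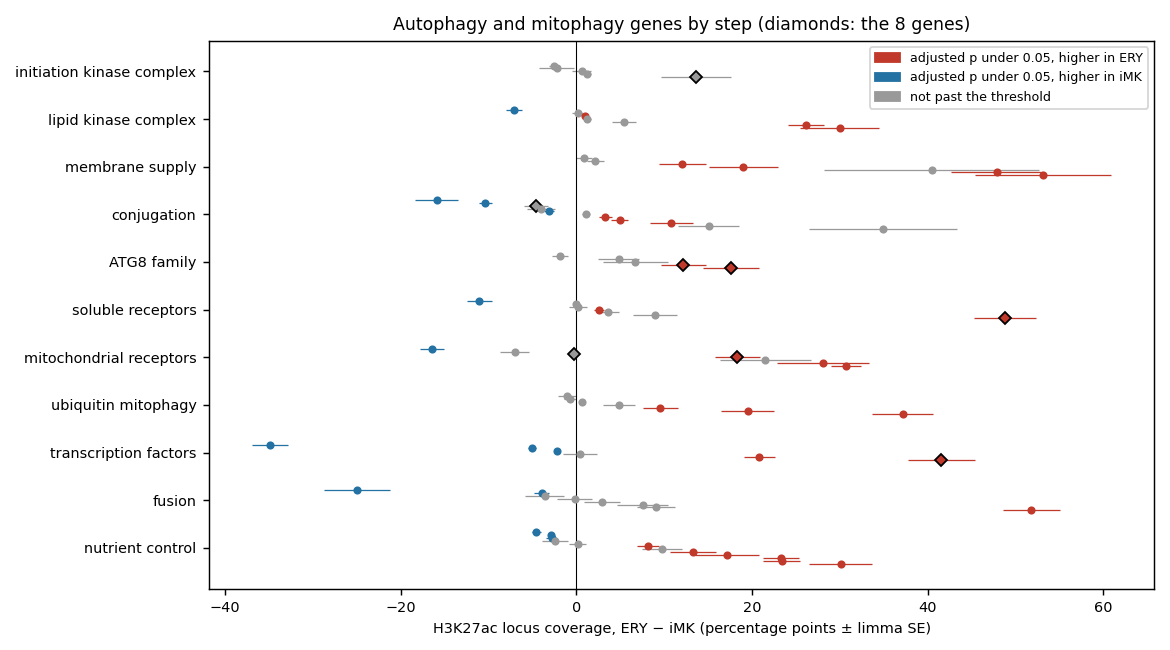
ERY minus iMK difference in H3K27ac locus coverage (percentage points, bars are the limma standard error) for 82 autophagy and mitophagy genes by step, diamonds for the 8 genes. Red points passed as higher in ERY (29 genes) and blue points as higher in iMK (14 genes), and Optn at 48.8 and Foxo3 at 41.5 are the rightmost diamonds.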

How the data were processed

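ChIP-seq peak lists of 8 libraries were analysed, and input libraries (4 ERY and 6 iMK) had no list among the files used here. Per the labels, the authors' notes name Bowtie 1.0.0, SICER 1.1 and mm10. The study's general ChIP methods name another Bowtie version and MACS, and the settings behind these lists are not given in the sources used here. All deposited peak edges are multiples of 200 bp. The deposited values per peak are a fold (ratio of ChIP to control), a p-value and a q-value, with no read counts, and every q-value was under 0.01. Close peaks are merged when peaks are called, so a width depends on how signal is joined.

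Gene models were GENCODE vM21. Coverage is the percent of a gene with 10 kb each side under peaks. Promoter width is the summed width of peaks touching 1 kb each side of any start, as log2, for genes called in all 4 libraries. Peaks on no protein-coding promoter are distal. Values were compared with limma 3.58.1 (R 4.3.3, moderated test with trend) as ERY minus iMK, 2 libraries a group, with Benjamini-Hochberg adjustment over all genes and a threshold of 0.05. The fit was tested on simulated data. Alternatives changed the flank, promoter window, overlap, gene filter, q-value, number of peaks, trend and normalization, or left out chromosome X or 1 library. The 5'-end promoter and the split at 2.5 kb were added after the data were seen.

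Named genes were the 8 members, and in each comparison and direction up to 4 other listed genes past the threshold with the largest difference. The members, lists and tests were chosen with earlier results of these data known. Sequences came from RefSeq (GRCm38). Python 3.11.15 and pysam 0.24.0 were used. The genes whose coverage was most like that of Optn are not reported here.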

Additional observations from a re-analysis of the deposited data

How the results depend on the processing

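The counts rest on 2 libraries a group and on how a promoter is drawn, and the lists hold no read counts. Of 461 comparisons of a member under an alternative, 377 kept direction and side of the threshold, 44 no longer passed, 19 newly passed and 21 turned direction. For other named genes the values were 215 kept, 65 no longer passing and 3 turned, of 283. The causes were not tested. No paired analysis was possible because the replicate numbers follow accession order and pair no samples.

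For H3K27ac locus coverage, 3 members passed as higher in ERY with no flank, with no gene filter or after quantile normalization, which also called 1 higher in iMK. Over all genes, coverage calls in ERY and iMK were 2314 and 1930 of 12752 with no flank. They were 2366 and 1930 of 21938 with no gene filter, and 3356 and 3118 of 14467 after quantile normalization. For width, quantile normalization called 3 members wider in ERY and 1 in iMK (all genes 856 and 741 of 7897). The 5' end alone called 2 members in ERY (all genes 1185 in ERY and 159 in iMK, of 7352). The split at 2.5 kb called 2 members in ERY and 1 in iMK (all genes 1913 and 1826 of 11206). With no gene filter 2144 genes were wider in iMK. For distal coverage, a 2.5 kb promoter window called 1 member in each direction (all genes 1309 in ERY and 1139 in iMK, of 8622). Quantile normalization called 1 member in ERY (all genes 1314 and 1335 of 9791). The 5' end alone called 3 members in ERY (all genes 1842 and 1468 of 10855). The split also called 3 members in ERY (all genes 2989 and 1954 of 12646). Over all genes, distal calls in ERY and iMK were 1007 and 829 with no flank, and 702 and 466 with no gene filter. H3K4me3 coverage calls were 1 and 2 with no gene filter and 113 and 177 after quantile normalization. H3K4me3 widths called in iMK were 2 with a 2.5 kb window and 0 with no gene filter, the 5' end alone or the split.

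Leaving out 1 library at a time, H3K27ac coverage calls ranged over 917 to 3276 genes in ERY and 754 to 3248 in iMK, and 0 to 4 members in ERY. Width calls were 0 to 0 for all genes in each direction and for members. Distal calls ranged over 485 to 3306 in ERY and 479 to 2926 in iMK, and 0 to 3 and 0 to 1 members. H3K4me3 coverage calls ranged over 0 to 20 in ERY and 0 to 4099 in iMK, and 0 to 2 members in iMK, and H3K4me3 width calls in iMK were 0 to 0.

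Directions turned as follows. With 25 kb flanks, Nlrx1 coverage was 0.97 points, and distal coverage was -0.41 at Bnip3l, 1.20 at Map1lc3b and 0.42 at Atg2a. After quantile normalization, coverage was 0.53 at Fundc1, and width -0.080 at Bnip3l. With the 5' end alone, width was -0.058 at Bnip3l and -0.311 at Tbk1, and H3K4me3 width -0.43 at Bnip3l. H3K4me3 coverage was 2.73 at Ulk1 with no flank, 1.77 at Ulk1 and 0.80 at Atg7 after quantile normalization, and -0.52 at Foxo3 with equal numbers of top peaks. Without 1 library, Fundc1 ranged from -0.84 to 0.28 points in H3K27ac coverage and -0.45 to 0.13 in width. H3K4me3 coverage ranged from -6.58 to 2.63 at Ulk1, -2.00 to 2.35 at Foxo3, -14.6 to 2.46 at Map1lc3b and -1.89 to 0.13 at Atg7. H3K4me3 width ranged from -0.37 to 1.31 at Ulk1, -1.49 to 0.061 at Foxo3, -1.51 to 0.34 at Map1lc3b and -2.35 to 0.45 at Atg7.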
